A study of Arabidopsis thaliana with 10 samples.

Results

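The trehalose phosphate synthases of Arabidopsis thaliana form a gene family of a class I and a class II. The 8 members described here are the class I gene TPS1 (AT1G78580) and the class II genes TPS5 (AT4G17770), TPS6 (AT1G68020), TPS7 (AT1G06410), TPS8 (AT1G70290), TPS9 (AT1G23870), TPS10 (AT1G60140) and TPS11 (AT2G18700). They were chosen by locus code and not by their values, and they are 8 of the 32824 genes in the table. The samples are shoots of seedlings that had grown for 10 days under the condition labelled normal, on solid Murashige and Skoog medium of reduced strength with 1% sucrose. The 5 OE samples come from a line that carries BnaC02.TPS8, a trehalose phosphate synthase gene of oilseed rape, behind the 35S promoter. This viral promoter is active in most plant tissues, so the transgene need not be restricted to the cells where TPS8 is normally transcribed. Where it was transcribed in this line was not analysed here. The 5 WT samples come from the accession Col-0, without the transgene. Only 1 line stands for the transgene, and its name is unclear, since the series description has O2 and the sample titles have OE-11. Separate cultures or plants for the 5 samples of a group are not stated, so the p-values measure only the spread between these samples.

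Class I enzymes join glucose from UDP-glucose to glucose phosphate and so make trehalose phosphate, the intermediate that phosphatases of the TPP family turn into trehalose. Trehalose phosphate is known in plants as a signal of sucrose supply and as an inhibitor of the energy-sensing kinase SnRK1. Class II proteins have a synthase-like and a phosphatase-like part, and most of them showed little or no enzyme activity in assays. Transcripts of TPS8 to TPS11 are known to be repressed by sugar, while those of TPS5 are known to be induced by it.

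The 7 class II genes are built alike. In RefSeq's annotation of TAIR10.1 each had 3 coding exons and between 2556 and 2604 coding bases, whereas TPS1 had 17 coding exons and 2829 coding bases. TPS5 lies on chromosome 4 and TPS11 on chromosome 2. The other 6 members lie on chromosome 1. The closest pair was TPS8 and TPS9, whose coding sequences were identical at 81.1% of aligned bases. TPS8 and TPS10 were identical at 72.4%, TPS8 and TPS11 at 67.0%, and TPS1 and the class II genes at 58.9% to 61.1%.

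Since fragments that fit several genes are shared out between them, the overlap in sequence bears on how far the members' values are separate measurements. The longest run of identical bases between coding sequences of TPS8 and TPS9 spans 32 bases and is printed with the aligned bases of the other class II genes, with capitals for bases that differ from TPS8.
TPS8: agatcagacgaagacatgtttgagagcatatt
TPS9: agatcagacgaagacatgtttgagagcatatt
TPS10: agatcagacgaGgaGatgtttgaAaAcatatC
TPS11: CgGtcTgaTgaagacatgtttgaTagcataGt
TPS6: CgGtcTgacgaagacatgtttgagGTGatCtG
TPS7: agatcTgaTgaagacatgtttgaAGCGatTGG
TPS5: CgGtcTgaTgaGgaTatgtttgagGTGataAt
TPS9 has 0 differing bases in this run, TPS10 has 5, TPS11 has 6, TPS6 has 8, TPS7 has 9 and TPS5 has 10. Over whole transcripts, TPS8 and TPS9 shared 4 words of 31 bases, the default word length of kallisto, which is among the tools in the submitters' processing notes. These are 0.120% of the words of TPS8 and 0.136% of those of TPS9, and the remaining members shared 0 words with each other. Words shared with any gene other than the 8 members made up 8.98% in TPS1, 4.92% in TPS6 and 2.88% in TPS5, mostly where a neighbouring gene or a long noncoding RNA overlaps on the opposite strand. In TPS1, 14 of the 482 shared words were shared with TPS4, another class I gene. No source used here states whether strand was used, so reads of these 3 genes and their overlapping partners may not be fully separated.

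The 250 bases before the annotated gene start are printed for TPS8, TPS9, TPS10 and TPS11, the 4 members whose transcripts fell in OE. Coordinates are those of TAIR10.1, each sequence reads in the direction of its gene, and capitals mark TATCCA or its reverse complement, a short sequence known from sugar-responsive promoters.
TPS8, chr1:26474834-26475083, reverse strand: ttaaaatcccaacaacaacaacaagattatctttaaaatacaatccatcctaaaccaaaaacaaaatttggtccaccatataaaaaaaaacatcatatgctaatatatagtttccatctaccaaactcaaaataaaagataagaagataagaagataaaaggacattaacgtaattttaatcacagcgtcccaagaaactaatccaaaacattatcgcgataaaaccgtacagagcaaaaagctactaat
TPS9, chr1:8431929-8432178, forward strand: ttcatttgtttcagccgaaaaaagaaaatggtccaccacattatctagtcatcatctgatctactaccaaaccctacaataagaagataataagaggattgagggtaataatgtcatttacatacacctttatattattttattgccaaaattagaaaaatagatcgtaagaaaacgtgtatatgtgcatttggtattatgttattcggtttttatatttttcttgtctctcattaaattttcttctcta
TPS10, chr1:22181741-22181990, reverse strand: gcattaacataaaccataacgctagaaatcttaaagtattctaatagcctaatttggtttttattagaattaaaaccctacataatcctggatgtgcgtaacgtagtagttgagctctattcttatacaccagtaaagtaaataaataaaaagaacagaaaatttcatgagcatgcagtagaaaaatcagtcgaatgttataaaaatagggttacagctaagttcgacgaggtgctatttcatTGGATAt
TPS11, chr2:8108648-8108897, forward strand: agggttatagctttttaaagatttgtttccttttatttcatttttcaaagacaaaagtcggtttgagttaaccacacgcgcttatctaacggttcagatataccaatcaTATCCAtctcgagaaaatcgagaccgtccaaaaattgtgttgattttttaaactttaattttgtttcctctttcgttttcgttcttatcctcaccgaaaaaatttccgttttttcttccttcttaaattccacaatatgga
All strings were searched on both strands. TATCCA began 7 bases before the start of TPS10 and 141 bases before the start of TPS11, and was in neither of the windows of TPS8 and TPS9. Among all 27443 windows of 250 bases, 13.6% held TATCCA, and it was also found in the window of TPS6. The G-box CACGTG was found in the window of TPS6, as in 6.49% of all windows. ACTCAT was found in TPS5 and TPS6, as in 12.3% of all windows, and AAAATATCT, the evening element, in 0 of the 8 members, as against 2.36% of all windows. None of the 4 strings overlapped another in the members' windows. A match is a string of letters and says nothing of binding, and these windows cover only a small part of the regulatory sequence.

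Transcript levels are given as FPKM, a measure of fragments per kilobase of transcript relative to the size of the library, so that levels can also be set side by side between genes. The table holds no counts. Depth was estimated from low values of genes with a single annotated transcript of at least 800 nt, each read as a single fragment. The most frequent result within a preset range put the libraries at 18300000 to 23300000 fragments if a fragment spans 200 nt. On this estimate the members had between 210 fragments (TPS5) and 6292 fragments (TPS8) in a library, where the fewest give a counting error of 6.90%, apart from variation between samples. The summed level of 5 shoot markers ran from 64993 to 74694 FPKM in OE and from 63860 to 74771 FPKM in WT. Of 6 root markers, the 5 other than PYK10 summed to 0.454 to 2.00 FPKM in OE and 0.606 to 1.99 FPKM in WT. PYK10, a glucosidase gene known mainly from roots and hypocotyls, was well above these, at 80.0 to 149.8 FPKM in OE and 99.5 to 146 FPKM in WT. Plastid-encoded RNA took 0.442% to 2.90% of the summed FPKM in OE and 0.552% to 4.28% in WT, and was highest in WT 4, WT 2 and OE 4. Mitochondrial-encoded RNA summed to 30.5, 169, 210, 314 and 438 FPKM in OE samples 1 to 5. In WT samples 1 to 5 it summed to 37.8, 50.2, 158, 41.1 and 38.6 FPKM.

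All 8 members were above the minimum mean of 1 FPKM and were tested. The question of the study is which transcripts differ in plants that carry the transgene. Transcripts of TPS8, TPS9, TPS10 and TPS11 fell in OE to between 0.501 and 0.685 times the WT mean, with the lowest ratio for TPS8. TPS1, TPS5, TPS6 and TPS7 did not pass the test. The 4 members that fell all belong to class II, as do 7 of the 8 members, and 0 members rose. The test was limma on log2(FPKM + 1) with Benjamini-Hochberg adjustment over the 17713 tested genes, and the threshold was an adjusted p under 0.05. In all, 2.89% of the tested genes passed the threshold, and 0.525% passed it with a lower level in OE. At an unadjusted p under 0.05 there were 6 members, TPS5 and TPS7 besides the 4 that passed, against 15.1% of all tested genes. All 8 log2 differences were below 0, with a median of -0.46 over the members and 0.00 over all tested genes.

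**Figure D1:**
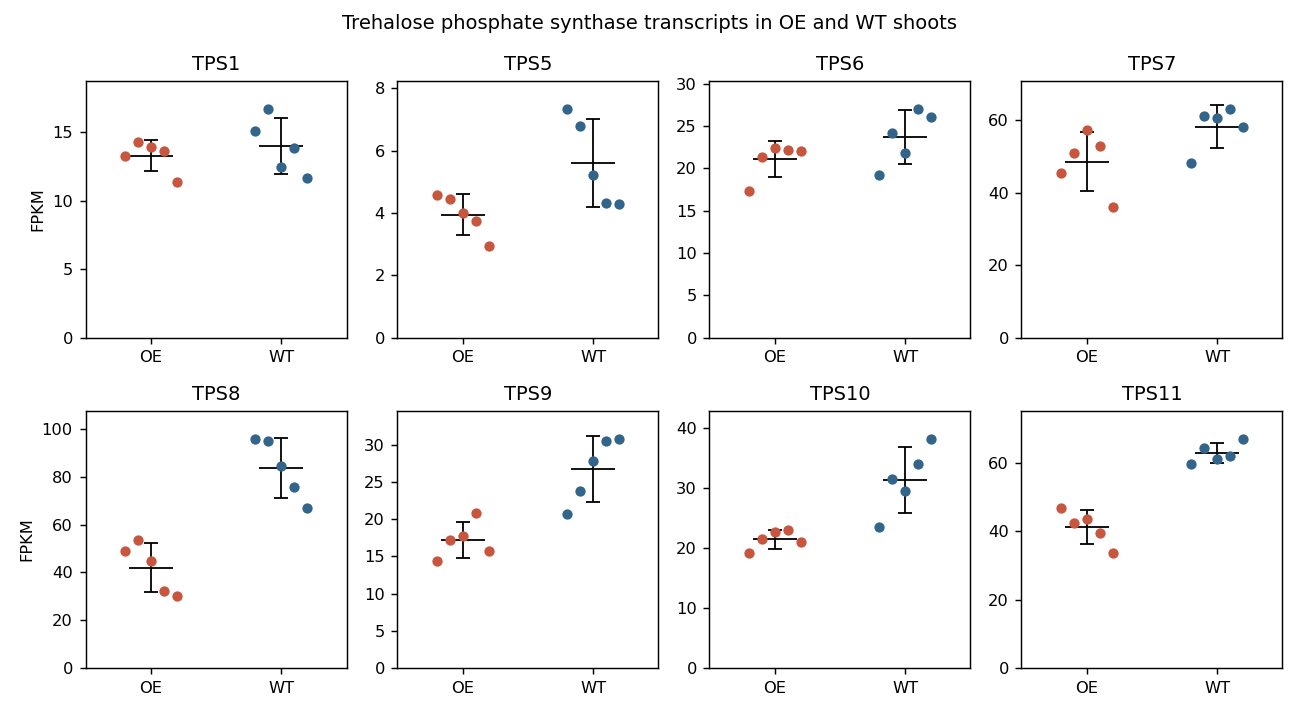
FPKM of the 8 genes (vertical axes from 0) in the OE and WT samples, where each point is 1 sample, in the order of the title numbers from left to right, and the bars show the mean and SD (n = 5 per group). For TPS8, TPS10 and TPS11 every OE point lies below every WT point, while the groups overlap for TPS1, TPS5, TPS6, TPS7 and TPS9.

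TPS1, the only class I member above the minimum level and the main enzyme that makes trehalose phosphate, had 13.3, 14.3, 13.9, 13.6 and 11.3 FPKM in OE samples 1 to 5. It had 15.1, 16.7, 12.5, 13.9 and 11.7 FPKM in WT samples 1 to 5. The groups overlapped, though WT 1 and WT 2 lay above every OE sample. The highest value was in WT 2 and the lowest in OE 5. TPS1 averaged 13.3 ± 1.15 FPKM in OE and 14.0 ± 2.04 FPKM in WT (SD, n = 5 each). The log2 difference was -0.06 (SE 0.10, limma adjusted p = 0.831), with a 95% interval from -0.28 to 0.16. The interval leaves room for a change in either direction.

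TPS8, the Arabidopsis gene that bears the same name as the transgene, had 48.9, 53.5, 44.8, 32.3 and 30.2 FPKM in OE samples 1 to 5. In WT samples 1 to 5 it had 96.0, 95.1, 84.5, 75.8 and 67.1 FPKM. The highest OE sample stayed below the lowest WT sample, and samples 4 and 5 were the lowest of both groups. TPS8 averaged 41.9 ± 10.3 FPKM in OE and 83.7 ± 12.5 FPKM in WT (SD, n = 5 each), a ratio of 0.501. The log2 difference was -1.002 (SE 0.16, 95% interval -1.36 to -0.64, limma adjusted p = 0.00978). An exact permutation test, two-sided over the 252 ways to assign the 10 samples, gave p = 0.00794, the smallest it can give. The level of the transgene itself was not analysed here, and whether any of its fragments were assigned to Arabidopsis genes of the family was not tested.

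TPS9, the closest relative of TPS8 by coding sequence, had 14.3, 17.2, 17.7, 20.8 and 15.7 FPKM in OE samples 1 to 5. The WT samples 1 to 5 had 20.6, 23.8, 27.8, 30.6 and 30.8 FPKM. The groups touched at a single point, since OE 4 lay just above WT 1, and at each number OE was below WT. TPS9 averaged 17.2 ± 2.41 FPKM in OE and 26.7 ± 4.43 FPKM in WT (SD, n = 5 each), a ratio of 0.642. The log2 difference was -0.61 (SE 0.12, 95% interval -0.88 to -0.33, limma adjusted p = 0.0268).

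TPS10, another class II gene, had 19.1, 21.4, 22.6, 23.0 and 21.0 FPKM in OE samples 1 to 5. In WT samples 1 to 5 it had 23.4, 31.5, 29.5, 33.9 and 38.2 FPKM. The groups did not overlap, but the gap was small, since WT 1 lay close above OE 4. TPS10 averaged 21.4 ± 1.56 FPKM in OE and 31.3 ± 5.47 FPKM in WT (SD, n = 5 each), a ratio of 0.685. The log2 difference was -0.51 (SE 0.11, 95% interval -0.76 to -0.26, limma adjusted p = 0.0374).

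TPS11, also of class II, had 46.9, 42.3, 43.5, 39.5 and 33.6 FPKM in OE samples 1 to 5. The WT samples 1 to 5 had 59.7, 64.4, 61.1, 62.1 and 67.1 FPKM. The groups did not overlap, and the WT samples lay close together. TPS11 averaged 41.2 ± 4.99 FPKM in OE and 62.9 ± 2.94 FPKM in WT (SD, n = 5 each), a ratio of 0.655. With a log2 difference of -0.61 (SE 0.08, 95% interval -0.79 to -0.42), it had the smallest adjusted p of the family, 0.00776 by limma. The 3 members without overlap, TPS8, TPS10 and TPS11, stand beside 1.42% of all tested genes whose OE samples all lay below their WT samples.

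TPS5, the least abundant member, had 4.59, 4.45, 4.00, 3.76 and 2.93 FPKM in OE samples 1 to 5. The WT samples 1 to 5 had 7.36, 6.79, 5.22, 4.31 and 4.31 FPKM. The groups overlapped, because WT 4 and WT 5 lay below OE 1 and OE 2. TPS5 averaged 3.95 ± 0.662 FPKM in OE and 5.60 ± 1.41 FPKM in WT (SD, n = 5 each), and its log2 difference was -0.40 (SE 0.15, 95% interval -0.73 to -0.07, limma adjusted p = 0.226).

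TPS6, a class II gene, had 17.4, 21.3, 22.5, 22.2 and 22.1 FPKM in OE samples 1 to 5. In WT samples 1 to 5 it had 19.2, 24.1, 21.8, 27.1 and 26.0 FPKM. OE 1 was low against the other OE samples, and the groups overlapped. The log2 difference was -0.15 (SE 0.10, 95% interval -0.38 to 0.07, limma adjusted p = 0.534), from means of 21.1 ± 2.12 FPKM in OE and 23.7 ± 3.19 FPKM in WT (SD, n = 5 each).

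TPS7, likewise of class II, had 45.4, 50.9, 57.3, 53.0 and 36.1 FPKM in OE samples 1 to 5. The WT samples 1 to 5 had 48.1, 61.2, 60.5, 63.2 and 58.0 FPKM. OE 5 was the lowest sample, and OE 2, OE 3 and OE 4 lay above WT 1. TPS7 averaged 48.5 ± 8.18 FPKM in OE and 58.2 ± 5.93 FPKM in WT (SD, n = 5 each), with a log2 difference of -0.27 (SE 0.12, limma adjusted p = 0.321). In 6 members, all but TPS1 and TPS6, the OE sample lay below the WT sample of the same number at all 5 numbers. Among all tested genes 6.9% did so, and for TPS1 and TPS6 the exception was number 3.

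The calls of TPS9 and TPS10 depended on single libraries. By limma, TPS9 no longer passed without OE 1, OE 2, OE 3, OE 5, WT 3, WT 4 or WT 5 (adjusted p up to 0.0731), and TPS10 passed only without WT 1 among the 10 omissions (adjusted p otherwise up to 0.0956). TPS8 and TPS11 passed in all 10. Without the 3 samples with the most plastid RNA, WT 2, WT 4 and OE 4, 0 members and 0% of all tested genes passed by limma, while 10.5% of all tested genes had an unadjusted p under 0.05. The log2 differences were then -0.90 for TPS8, -0.65 for TPS9, -0.49 for TPS10 and -0.59 for TPS11, close to those over all samples. The 7 remaining samples comprised 4 OE and 3 WT samples. In bulk samples, fewer cells of a type and less RNA per cell cannot be told apart.

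The summed level of the 8 members was 209.8, 225, 226, 208 and 173 FPKM in OE samples 1 to 5. In WT samples 1 to 5 it was 289.6, 324, 303, 311 and 303 FPKM. Every OE sum lay below every WT sum. The sums averaged 209 ± 21.6 FPKM in OE and 306 ± 12.5 FPKM in WT (SD, n = 5 each). TPS8, TPS9, TPS10 and TPS11 together averaged 122 ± 13.7 FPKM in OE and 205 ± 5.86 FPKM in WT. They were grouped because they passed the test in these same samples, so their lower sum in OE follows from that choice. The other 4 members together averaged 86.9 ± 10.2 FPKM in OE and 101 ± 7.81 FPKM in WT, where the groups overlapped.

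The order of the levels per length differed between the groups. In OE the means ran TPS7, TPS8, TPS11, TPS10, TPS6, TPS9, TPS1 and TPS5 from high to low, and in WT they ran TPS8, TPS11, TPS7, TPS10, TPS9, TPS6, TPS1 and TPS5. Neighbours in this order whose ranges did not overlap were TPS11 and TPS10, TPS9 and TPS1, and TPS1 and TPS5 in OE, and TPS7 and TPS10, TPS6 and TPS1, and TPS1 and TPS5 in WT. All other neighbours overlapped. TPS8 was the highest member in OE 1 and OE 2 and in WT 1 to WT 4. TPS7 was the highest in OE 3, OE 4 and OE 5, and TPS11 was just ahead of TPS8 in WT 5. TPS5 was the lowest in all 10 samples.

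**Figure D2:**
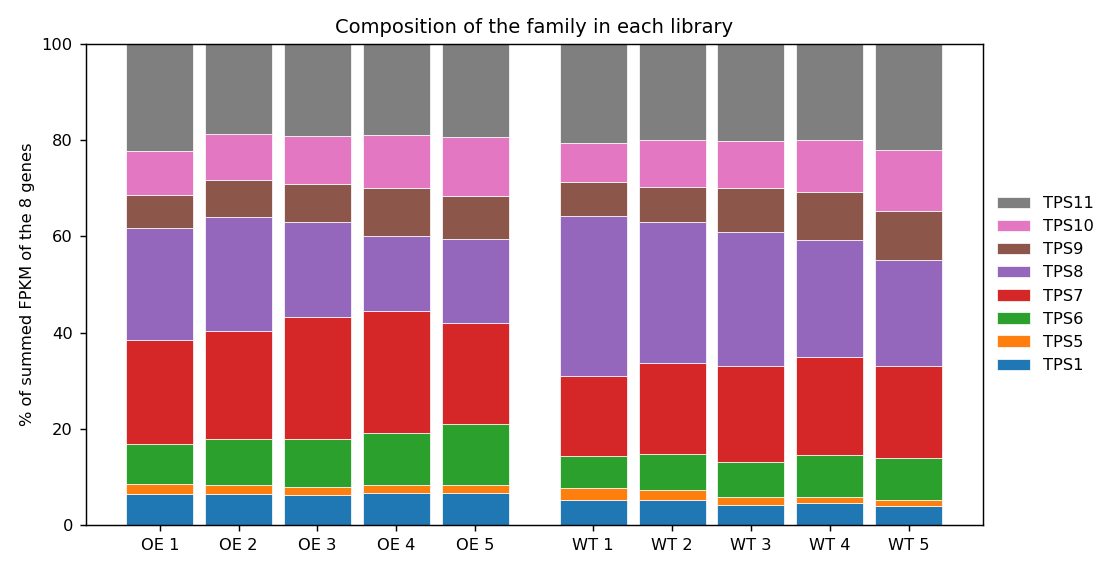
Share of each member in the summed FPKM of the 8 genes (vertical axis, percent) for the 5 OE and the 5 WT samples, where each bar is 1 sample. The TPS8 segment averages 20.0% in OE and 27.4% in WT, and the TPS1 segment 6.39% in OE and 4.57% in WT.

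As a share of this sum, TPS8 took 20.0 ± 3.58% in OE and 27.4 ± 4.31% in WT (SD, n = 5 each). TPS1 took 6.39 ± 0.173% in OE and 4.57 ± 0.619% in WT. TPS9 took 8.27 ± 1.25% in OE and 8.73 ± 1.41% in WT, and TPS10 took 10.4 ± 1.24% in OE and 10.2 ± 1.67% in WT. So the shares of TPS9 and TPS10 differed by less than their spread, although their levels fell in OE. Shares of one sum are tied to each other and were not tested.

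The sample titles also carry a number from 1 to 5 in each group. No label says what the number stands for, so a trend with it describes these samples and is no time or dose. Beside genotype, the number was fitted as a slope, in log2 units per step. Across both groups TPS8 and TPS5 fell with the number, by 0.17 and 0.15 per step on the log2 scale, and 0 members rose. Of all tested genes, 9.98% had a trend at an adjusted p under 0.05 by limma, 4.53% upward and 5.44% downward. The median slope was -0.02 over the 8 members and -0.00 over all tested genes.

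**Figure D3:**
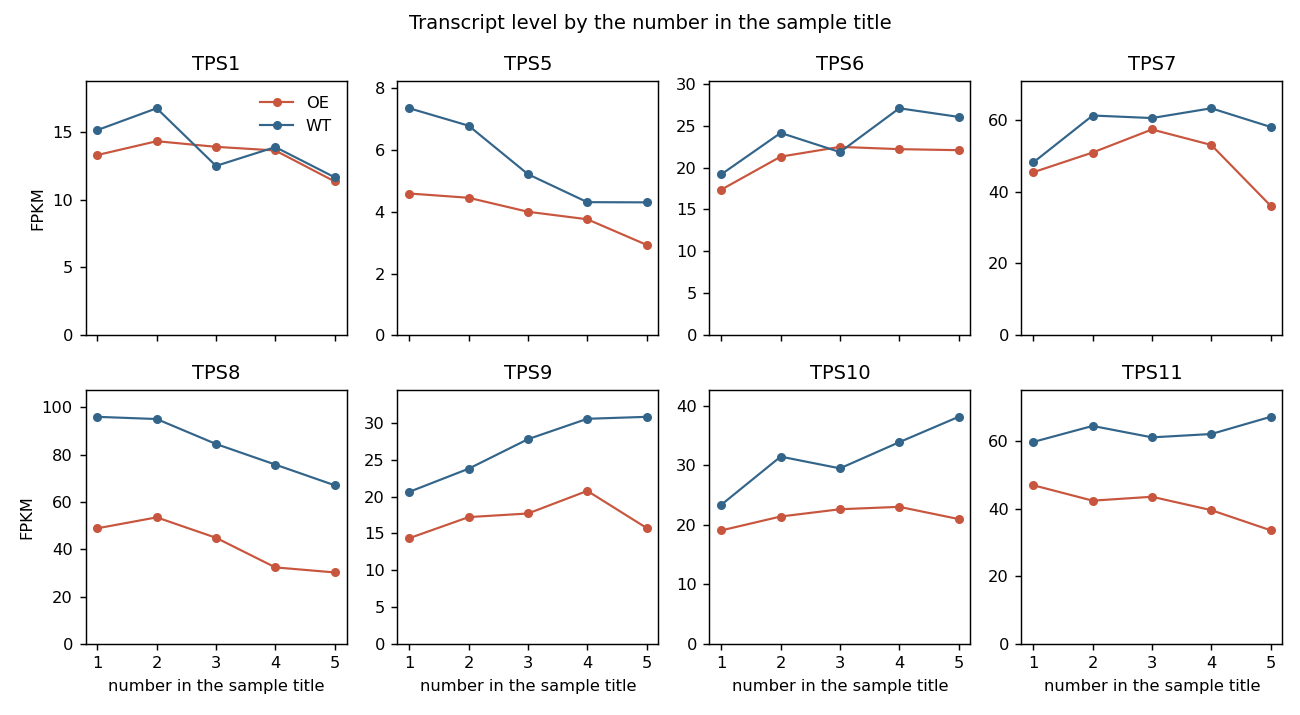
FPKM of the 8 genes (vertical axes from 0) against the number in the sample title (horizontal axis), with 1 line each for OE and WT and 1 point per sample. TPS8 falls toward number 5 in both lines, from 48.9 to 30.2 FPKM within OE and from 96.0 to 67.1 FPKM within WT, and the TPS9, TPS10 and TPS11 lines lie farthest apart at number 5.

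TPS8 had a slope of -0.17 per step (SE 0.03, limma adjusted p = 0.00458), a fitted ratio of 0.623 between numbers 5 and 1. Its slope was -0.21 within OE (adjusted p = 0.0384) and -0.13 within WT (adjusted p = 0.102), by limma with a slope per group. TPS5 had a slope of -0.15 per step (SE 0.03, limma adjusted p = 0.00704), a fitted ratio of 0.653. Within OE its slope was -0.12 (adjusted p = 0.192) and within WT -0.19 (adjusted p = 0.0399), by the same limma fit. Of all tested genes, 1.37% had such a slope within OE and 2.96% within WT, against 1 member in each, TPS8 within OE and TPS5 within WT.

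The other members had slopes that did not pass the test. They were 0.09 for TPS6 (limma adjusted p = 0.0626), 0.09 for TPS10 (0.0789), 0.10 for TPS9 (0.0931), -0.07 for TPS1 (0.142), -0.04 for TPS11 (0.441) and -0.00073 for TPS7 (0.996). With median-ratio scaling of the FPKM values TPS6 did rise with the number (slope 0.09, limma adjusted p = 0.0443). The slopes of TPS9 and TPS10 were opposite in sign to that of TPS8. Without OE 5, by limma, TPS9 (slope 0.15, adjusted p = 0.00463) and TPS10 (slope 0.13, adjusted p = 0.0223) did rise with the number. The ratio of TPS8 to TPS9, both per length, was 3.40, 3.11, 2.53, 1.56 and 1.92 in OE samples 1 to 5, and 4.65, 4.00, 3.04, 2.48 and 2.18 in WT samples 1 to 5. It was lower in OE than in WT at each number, and lower at numbers 4 and 5 than at 1 and 2 in both groups.

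**Figure D4:**
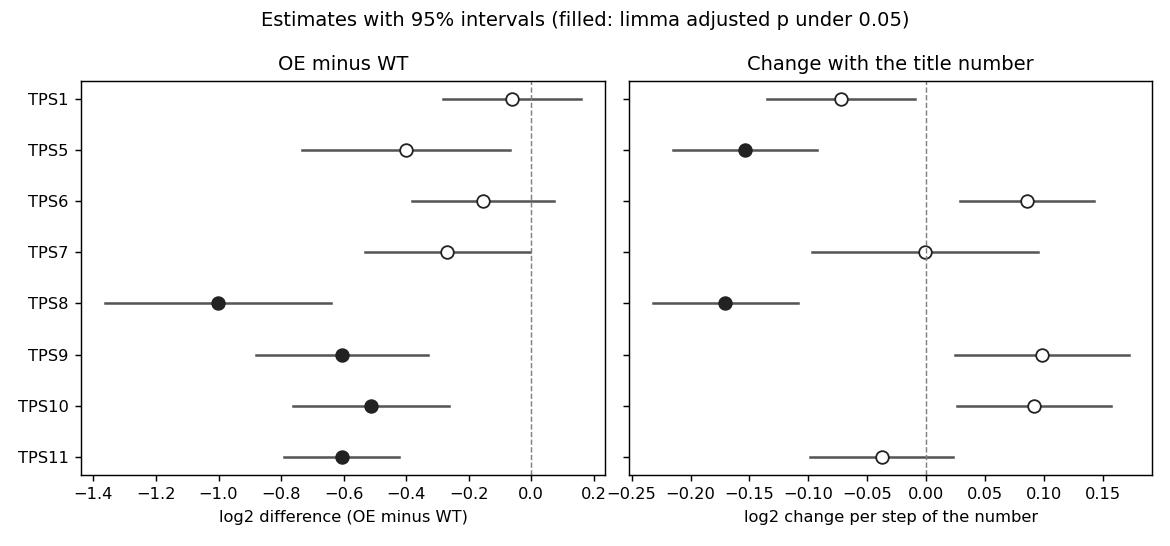
Estimates for the 8 genes with 95% intervals, on the left the log2 difference of OE minus WT and on the right the log2 change per step of the title number, over 10 samples. Filled points passed a limma adjusted p under 0.05, which are TPS8, TPS9, TPS10 and TPS11 on the left (-1.002, -0.61, -0.51 and -0.61) and TPS5 and TPS8 on the right (-0.15 and -0.17).

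Whether the slope differed between OE and WT was tested as an interaction. By limma 0 members and 0% of all tested genes passed, and 2.85% of all tested genes had an unadjusted p under 0.05. TPS11 was the only member with such an unadjusted p, with a slope lower by 0.13 in OE (SE 0.04, unadjusted p = 0.00702 and adjusted p = 1 by limma). Its slope was -0.10 within OE and 0.03 within WT. For TPS8 the difference of slopes was -0.07, with a 95% interval from -0.19 to 0.05. At numbers 1 and 2 the ratio of OE to WT means was 0.536 for TPS8, 0.710 for TPS9, 0.738 for TPS10 and 0.719 for TPS11. At numbers 4 and 5 it was 0.437 for TPS8, 0.595 for TPS9, 0.611 for TPS10 and 0.566 for TPS11. These ratios are a description, since no interaction passed.

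With the number in the model as a covariate, 5 members passed for the comparison of OE with WT, TPS5 in addition to TPS8, TPS9, TPS10 and TPS11. TPS5 then had an adjusted p of 0.0184 by limma at the same log2 difference of -0.40. In that fit 5.01% of all tested genes passed, and 1.42% with a lower level in OE. The trend call of TPS8 held in all 10 omissions of a library. That of TPS5 also did, but without WT 2, WT 4 and OE 4 together its adjusted p was 0.0550 by limma.

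Deviations from the group means showed which members moved together among the 10 samples. The correlation r was 0.89 for TPS6 and TPS10, 0.85 for TPS9 and TPS10, and 0.83 for TPS5 and TPS8. It was -0.54 for TPS8 and TPS9 and -0.71 for TPS5 and TPS6. Over the values themselves, which also hold the difference between OE and WT, TPS8 and TPS9 had r = 0.61. All members share the same 10 libraries, and the deviations keep the trends with the title number, so these values are a description. For the deviations, the pairs named with a positive r had slopes of the same sign, and those with a negative r had slopes of opposite sign.

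Among 12543 genes outside the family with a mean of at least 5 FPKM, the 5 most like TPS8 over the 10 samples were AT5G35970 (r = 0.976), AT1G05753 (r = 0.970), AT2G25200 (r = 0.967), FIM1 (AT4G26700, r = 0.964) and AT3G07350 (r = 0.963). For deviations from the group means they were GDU3 (AT5G57685, r = 0.984), OPT7 (AT4G10770, r = 0.982), BES1 (AT1G19350, r = 0.977), AT1G49500 (r = 0.964) and KCS8 (AT2G15090, r = 0.963). The first measure takes in the difference between the groups. The second leaves it out but keeps the trend with the title number. All 5 genes of the second list fell with the number, as TPS8 did (limma adjusted p from 0.00389 to 0.0134), beside 5.44% of all tested genes. They were chosen for likeness to deviations that hold the slope of TPS8, so their fall follows largely from that choice. The lists held no gene in common.

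The other genes of the pathway comprise 3 more class I synthases, 10 trehalose phosphate phosphatases and the trehalase TRE1. Of these 14 genes, 8 were tested, and TPS2, TPS3, TPS4, TPPC, TPPD and TPPI lay below the minimum level. Between OE and WT 0 of the 8 passed by limma, against 2.89% of all tested genes, and 3 had an unadjusted p under 0.05, against 15.1% of all tested genes. These were the phosphatases TPPA, with 23.3 ± 4.48 FPKM in OE and 16.8 ± 3.02 FPKM in WT (limma adjusted p = 0.173), TPPB, with 2.00 ± 0.384 FPKM in OE and 1.18 ± 0.351 FPKM in WT (0.111), and TPPJ, with 4.62 ± 0.794 FPKM in OE and 3.34 ± 0.625 FPKM in WT (0.181). All 3 had higher means in OE. TRE1, which splits trehalose into glucose, averaged 1.17 ± 0.238 FPKM in OE and 1.23 ± 0.270 FPKM in WT (SD, n = 5 each). With the title number, 1 of the 8 rose and 1 fell, against 4.53% and 5.44% of all tested genes. TPPG rose by a slope of 0.61 (limma adjusted p = 0.00449) and TPPH fell by 0.17 per step (limma adjusted p = 0.0349). TPPH no longer passed without OE 1, OE 2, OE 3, OE 5, WT 1, WT 2 or WT 5 (limma adjusted p up to 0.150).

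SnRK1, the kinase that trehalose phosphate inhibits, was represented by 6 subunit genes, of which 0 passed between OE and WT by limma, against 2.89% of all tested genes, with 0 at an unadjusted p under 0.05. The catalytic subunit KIN10 averaged 28.0 ± 3.30 FPKM in OE and 26.2 ± 2.93 FPKM in WT, and the catalytic subunit KIN11 averaged 27.1 ± 8.61 FPKM in OE and 20.6 ± 7.41 FPKM in WT (SD, n = 5 each). With the title number 3 of the 6 rose, against 4.53% of all tested genes, and 0 fell. Their slopes were 0.27 for KIN11 (limma adjusted p = 0.00297), 0.25 for the regulatory subunit KINB1 (0.00565) and 0.09 for KIN10 (0.0259). KIN10 no longer passed without OE 1, WT 1, WT 2 or WT 5 (limma adjusted p up to 0.127). Over all alternative fits, these omissions included, KIN10 kept its call in 14 and lost it in 6, and KINB1 lost its call in 1.

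Of 10 genes known to be induced when sugar is short, 8 rose with the number, against 4.53% of all tested genes, and 0 fell, with a median slope of 0.20 beside -0.00 over all tested genes. The other 2 had slopes below 0 that did not pass. Between OE and WT 0 of the 10 passed by limma, against 2.89% of all tested genes, with 0 at an unadjusted p under 0.05. The smallest p-values belonged to MCCA, a subunit of an enzyme of leucine breakdown (slope 0.49), DIN6, an asparagine synthetase (0.56), BCAT2, an aminotransferase of branched-chain amino acids (0.68), and SEN1, a marker of darkness and senescence (0.61). DIN6 had 48.5, 79.2, 96.8, 166 and 166 FPKM in OE samples 1 to 5. It had 38.9, 69.4, 104, 172 and 247 FPKM in WT samples 1 to 5. In both groups numbers 4 and 5 held the highest DIN6 values and the lowest TPS8 values. Of 2 genes known to be induced by sugar, BAM5 did not pass, and APL3, a subunit of the enzyme that starts starch synthesis, fell by 0.18 per step (limma adjusted p = 0.00869). APL3 lost its call in 1 of the alternative fits. The part of these genes' trends in those of TPS8 and TPS5 was not tested.

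**Figure D5:**
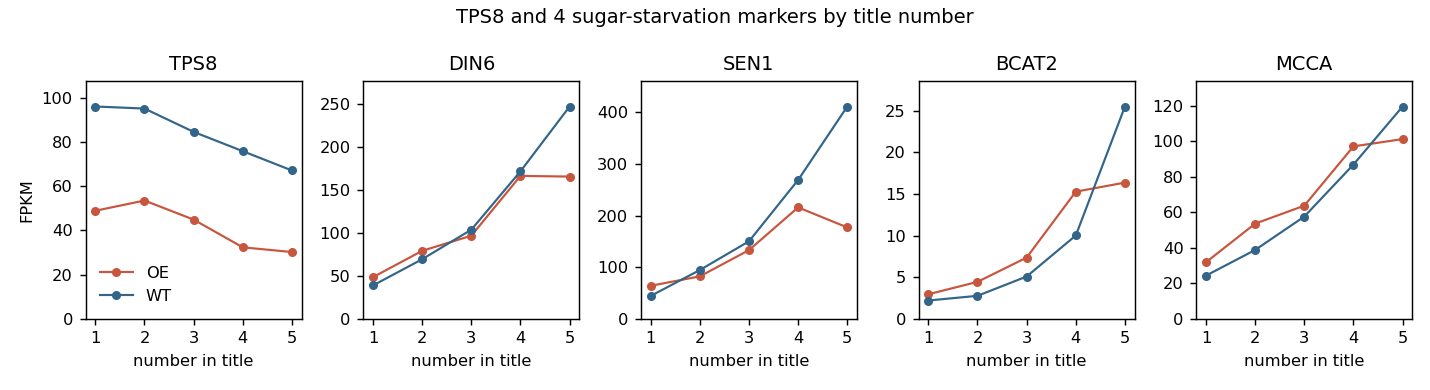
FPKM (vertical axes from 0) of TPS8 and of the 4 sugar-starvation genes with the smallest p for the slope, against the number in the sample title (horizontal axis), with 1 line each for OE and WT and 1 point per sample. TPS8 is lower at number 5 than at number 1 in both lines, while DIN6 is higher, at 166 FPKM in OE 5 and 247 FPKM in WT 5.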

How the data were processed

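RNA was extracted from 10 shoot samples with the RNeasy Plant Mini Kit and made into libraries with the NEBNext Ultra II RNA kit, per the labels' protocols. The submitters' processing notes name kallisto 043.1 and sleuth, with Trimmomatic 0.36, FastQC and R 3.5.1 beside them, and give no role or order. The build and annotation behind the values were not given in the sources used here. The deposited values are FPKM per gene, 1 column per sample, and no count is held. Samples were grouped by title.

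The 17713 genes with a mean of at least 1 FPKM over the 10 samples were tested with limma 3.58.1 in R 4.3.3 on log2(FPKM + 1), two-sided, with a variance trend and Benjamini-Hochberg adjustment over all of them. Fits held genotype, genotype and title number, or their product. Log2 differences on this scale understate changes of weakly expressed genes such as TPS5. The scripts were tested on simulated data. The members, gene lists, tests and the rule for named genes were chosen with earlier results of these data known. The rule named all 8 members, pathway genes past the threshold or with an unadjusted p under 0.05, TRE1, KIN10, KIN11, SnRK1 subunits past the threshold, up to 4 starvation genes of smallest p, and the 5 genes most like TPS8 by each measure.

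Loci were matched by code to RefSeq's TAIR10.1 (32539 of 32824 identifiers on nuclear chromosomes), which gave structures, sequences and neighbours but no positions for the deposited values. Sequences were aligned with Biopython 1.88. Alternatives were other pseudocounts, filters and scalings, no variance trend, a replicate block or the number as a covariate, numbers 1 and 2 against 4 and 5, and omission of each sample or of the 3 with the most plastid RNA. Figures were drawn with matplotlib 3.10.9.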

Additional observations from a re-analysis of the deposited data

Results flagged for a closer look

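In 68 groups of 5 samples (34 tested genes of the family and the pathway, SnRK1 and sugar lists, in OE and in WT), 3 had a sample far from the other 4, by the gap to the nearest sample as a share of the whole range against Dixon's limit of 0.71. Chance flags about 1 in 20 groups. TPS6 in OE 1 had 17.4 FPKM against 21.3 to 22.5 FPKM in the other OE samples, a gap of 0.7715 of the range. TPPH in OE 5 had 4.04 FPKM against 7.35 to 8.03 FPKM, a gap of 0.8301. bZIP63, a transcription factor of the starvation list, had 68.7 FPKM in OE 1 against 86.5 to 92.6 FPKM, a gap of 0.7458.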

How the results depend on the processing

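All 8 members kept the sign of the OE to WT difference in the alternatives that tested them (21, and 20 for TPS5), except TPS1, which ran from -0.12 to 0.0028 with 1 sample left out and was at 0.015 without the 3 samples of most plastid RNA. With 1 sample left out, 204 to 534 genes and 2 to 4 members passed between OE and WT, and 761 to 2124 genes and 2 to 4 members had a trend. Without the 3 samples of most plastid RNA, 0 genes and 0 members passed between OE and WT, and 549 genes and 1 member had a trend. With the replicate block, 781 genes passed and the members' count was still 4; deviations of same-numbered OE and WT samples correlated by 0.20, -0.04, -0.09, 0.07 and 0.18, not every sample correlated best with its own number, and the numbers were not taken to pair samples. The number as a covariate gave 887 genes. TPS10 lost its call with no filter (adjusted p = 0.0585) and with no variance trend (0.0521). For the trend, numbers 1 and 2 against 4 and 5 gave 858 genes, and the filter at 5 FPKM, which leaves TPS5 untested, gave 1 member. Median-ratio scaling gave 3 members with a trend, TPS6 in addition (adjusted p = 0.0443). The trend of TPS7 was 0.0037 for numbers 1 and 2 against 4 and 5, and ran from -0.045 to 0.066 with 1 sample left out. The difference of TRE1 ran from -0.097 to 0.015 with 1 sample left out. The trend of TPPH lost its call without 7 of the 10 samples. Over all alternatives, trend calls were lost in 9 for TPPH, in 6 for KIN10, and in 1 each for KINB1 and APL3. With all samples, 512 genes passed between OE and WT and 1767 had a trend, so the counts with 1 sample left out lay both below and above these. The causes of the changes, the smaller number of samples among them, were not tested.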
